A study of Mus musculus with 24 samples.

Results

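The Schlafen genes are a family of interferon-inducible genes of immune cells. Of the 20636 genes in each TPM table of the study, 6 were followed here: Slfn1, Slfn2, Slfn4, Slfn5, Slfn8 and Slfn9. They were taken by gene symbol, and the family was chosen by a measured value, the rise of Slfn4 in homozygous knockout microglia at 17 months. The 17-month homozygous values of all 6 genes are therefore given as a description with no test, and tests are given for the 3-month comparisons and, although it shares the wild types with that choice, for heterozygotes against wild types at 17 months. All 6 genes had a mean of at least 1 TPM (transcripts per mega, written M below) over the 12 animals of each age, the level required for a test.

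The samples were bulk RNA of microglia, the brain's own macrophages, from C57BL/6J mice. Animals were wild type (WT), heterozygous knockout (HET) or homozygous knockout (HOM) for C9orf72, listed under its mouse name 3110043O21Rik, and were 3 or 17 months old, with 4 animals in each of the 6 groups. No other allele or agent is labelled, nor is the way in which the knockout was generated. Cells were isolated by removing the meninges, digesting the brain with papain, depleting myelin and collecting CD11b-positive cells on magnetic beads, a sort that neutrophils, monocytes and other macrophages can pass as well. Single animals are named by genotype and the animal number of the tables. In bulk RNA, fewer cells of a type and less RNA per cell cannot be told apart.

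Schlafen proteins were described in developing thymocytes and restrain growth or viral replication in several settings. Short forms such as Slfn1 and Slfn2 hold the shared core alone, Slfn4 is of intermediate length, and long forms such as Slfn5, Slfn8 and Slfn9 add a helicase-like region. Slfn2 keeps resting T cells and monocytes quiescent and protects transfer RNA from cleavage, and Slfn4 is induced by interferon in myeloid cells and marks a population of suppressive myeloid cells in the inflamed stomach.

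Each library held between 16.7 and 46.4 M alignments, and homozygous libraries were the deepest at both ages (30.6 to 33.8 M at 3 months and 40.7 to 46.4 M at 17 months). The targeted transcript 3110043O21Rik followed the labels, with means of 22.8, 9.73 and 0.139 TPM in WT, HET and HOM at 3 months and 14.9, 7.20 and 0.0360 TPM at 17 months. Microglial markers were abundant in every group, since the lowest group mean of Tmem119 was 1803 TPM and that of P2ry12 was 1143 TPM. At 17 months 1 of 14 microglial markers had a positive HOM against WT difference (median -0.19 against 0.054 over all genes), with 5 lower at an unadjusted p under 0.05. The 1 called lower, Gpr34, averaged 653 TPM in WT and 369 in HOM (limma, adjusted p = 0.0349), and P2ry12 averaged 1739 and 1143 TPM. The summed level of the list was 27220 to 32219 TPM in WT, 23251 to 32679 in HET and 23418 to 30587 in HOM. By Y-linked transcripts, the males at 3 months were 1 WT, 4 HET and 2 HOM, and at 17 months 1 WT, 0 HET and 3 HOM, so sex was not balanced.

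All 6 genes lie in one cluster on chromosome 11 (mm10, GENCODE M21, 82951349 to 83190216), a span of 238.9 kb with 20 annotated genes, in which 0 protein-coding genes outside the family were annotated. Slfn5 (82951349 to 82964840), Slfn2 (83065112 to 83070678), Slfn1 (83116849 to 83122670) and Slfn4 (83175186 to 83190216) are on the plus strand. Slfn9 (82978390 to 82991830) and Slfn8 (83002158 to 83020810) are on the minus strand. Near-identical stretches limit how far reads can be told apart. Of the stretches of 75 bases, the read length, in the annotated transcripts of Slfn8, 6.99% also occur in another Slfn gene, as do 5.90% for Slfn9, 1.78% for Slfn4 and 1.70% for Slfn2, against 0% for Slfn1 and Slfn5. The levels of Slfn8 and Slfn9 carry that uncertainty, which includes the pseudogene Slfn10-ps. An antisense gene, Slfn5os, overlaps Slfn5. Its largest value in the 3-month RPKM table was 0.175, against 3.51 to 4.26 RPKM as group means of Slfn5.

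The upstream sequences are shown because Slfn1, Slfn2 and Slfn4 had the widest ranges at 17 months and the long forms Slfn5, Slfn8 and Slfn9 narrower ones, as described further on. This grouping was made after the values were seen, and those include the homozygotes that chose the family. For Slfn2 the wide range rests on HOM-7899 alone, at 158 TPM. The next highest animal (HOM-7835) had 89.3 TPM and the lowest (WT-7785) 54.0 TPM. Sequences are from RefSeq's table for mm10, which held a start for all 6 genes, and show up to 250 bases before the start, 5′ to 3′ on the gene's strand. In the lines for Slfn4, Slfn1 and Slfn2, capitals mark the longest run of letters that all 3 upstream windows share.
Slfn4, chr11:83174936-83175185, plus strand: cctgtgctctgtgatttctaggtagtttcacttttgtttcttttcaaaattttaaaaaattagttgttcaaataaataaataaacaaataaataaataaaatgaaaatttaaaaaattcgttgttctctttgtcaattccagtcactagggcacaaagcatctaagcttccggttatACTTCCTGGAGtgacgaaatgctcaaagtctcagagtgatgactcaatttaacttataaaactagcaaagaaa
Slfn1, chr11:83116570-83116819, plus strand: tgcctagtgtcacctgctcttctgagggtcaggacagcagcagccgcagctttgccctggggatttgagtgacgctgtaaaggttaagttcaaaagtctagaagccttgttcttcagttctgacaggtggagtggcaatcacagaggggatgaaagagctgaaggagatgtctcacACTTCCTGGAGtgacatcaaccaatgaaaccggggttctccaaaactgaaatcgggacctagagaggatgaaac
Slfn2, chr11:83064862-83065111, plus strand: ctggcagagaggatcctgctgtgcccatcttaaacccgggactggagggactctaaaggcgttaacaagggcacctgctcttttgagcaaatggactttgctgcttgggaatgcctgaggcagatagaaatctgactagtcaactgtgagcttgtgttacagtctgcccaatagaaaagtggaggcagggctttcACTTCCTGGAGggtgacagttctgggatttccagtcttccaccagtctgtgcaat
The shared run, ACTTCCTGGAG, is 11 bases long and begins 73, 74 and 55 bases before the start of Slfn4, Slfn1 and Slfn2. It was found after the values were seen. On either strand it occurs in 24 of 32851 RefSeq windows of 300 bases (0.0731%), and in none of the windows of Slfn5, Slfn8 and Slfn9. The 24 include the windows of Slfn1, Slfn2 and Slfn4. The run was picked as the longest that these 3 windows share, so its presence there was fixed in advance. The share of windows is therefore no test.

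In the lines for Slfn8, Slfn9 and Slfn5, capitals mark a match to the core of the interferon-stimulated response element, a sequence found upstream of many interferon-induced genes. The core was searched on both strands as GAAA, any 2 bases and GAAA again, which reads as TTTC, any 2 bases and TTTC on the other strand. RefSeq's start for Slfn5 lies inside the gene as placed above, and so does the Slfn5 line. Its window ends at 82952101, just before that start, and the line stops earlier, before annotated exon bases.
Slfn8, chr11:83020811-83021060, minus strand: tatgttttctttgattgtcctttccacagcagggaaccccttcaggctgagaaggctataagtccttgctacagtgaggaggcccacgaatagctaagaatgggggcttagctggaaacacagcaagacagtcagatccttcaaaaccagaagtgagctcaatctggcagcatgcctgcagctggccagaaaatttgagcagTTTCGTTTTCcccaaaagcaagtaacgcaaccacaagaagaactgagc
Slfn9, chr11:82991831-82992080, minus strand: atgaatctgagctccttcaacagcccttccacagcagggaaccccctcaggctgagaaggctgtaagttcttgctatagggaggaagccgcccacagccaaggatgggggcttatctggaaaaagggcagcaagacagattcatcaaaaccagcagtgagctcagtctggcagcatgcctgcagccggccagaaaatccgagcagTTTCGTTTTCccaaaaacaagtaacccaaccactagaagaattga
Slfn5, chr11:82951852-82951984, plus strand: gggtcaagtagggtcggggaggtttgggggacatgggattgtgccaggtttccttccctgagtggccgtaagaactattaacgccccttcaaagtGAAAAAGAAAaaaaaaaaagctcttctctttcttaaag
The matches begin 48 bases before the RefSeq start of Slfn8, 45 before that of Slfn9 and 155 before that of Slfn5, which lies beyond the printed line. A further annotated start of Slfn8 places the same match 136 bases upstream. The element occurs in 3.44% of the 32851 windows. It has no match in the windows of Slfn1, Slfn2 and Slfn4. A match is a run of letters and no evidence of binding, and a missing match says only that these letters are not in this window.

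Slfn2 and Slfn8 were the most abundant family members, at group means of 47.6 to 98.4 and 30.8 to 46.1 TPM. Slfn5 followed at 8.33 to 14.0 TPM, and Slfn4, Slfn1 and Slfn9 had lower levels, with group means of 1.90 to 13.6, 2.32 to 7.51 and 2.20 to 2.89 TPM. The genes also differed in how far animals of one age lay apart. At 17 months the highest of 12 animals exceeded the lowest 22.9 times for Slfn4, 11.9 times for Slfn1 and 2.93 times for Slfn2, but 1.68 times for Slfn5, 1.57 times for Slfn8 and 1.96 times for Slfn9. The highest Slfn2 value was 158 TPM in HOM-7899, and the next highest was 89.3 TPM in HOM-7835. At 3 months the same ratios were 4.28 for Slfn4, 4.15 for Slfn1 and 1.96 for Slfn2, and 1.79 to 1.85 for the 3 long forms.

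**Figure D1:**
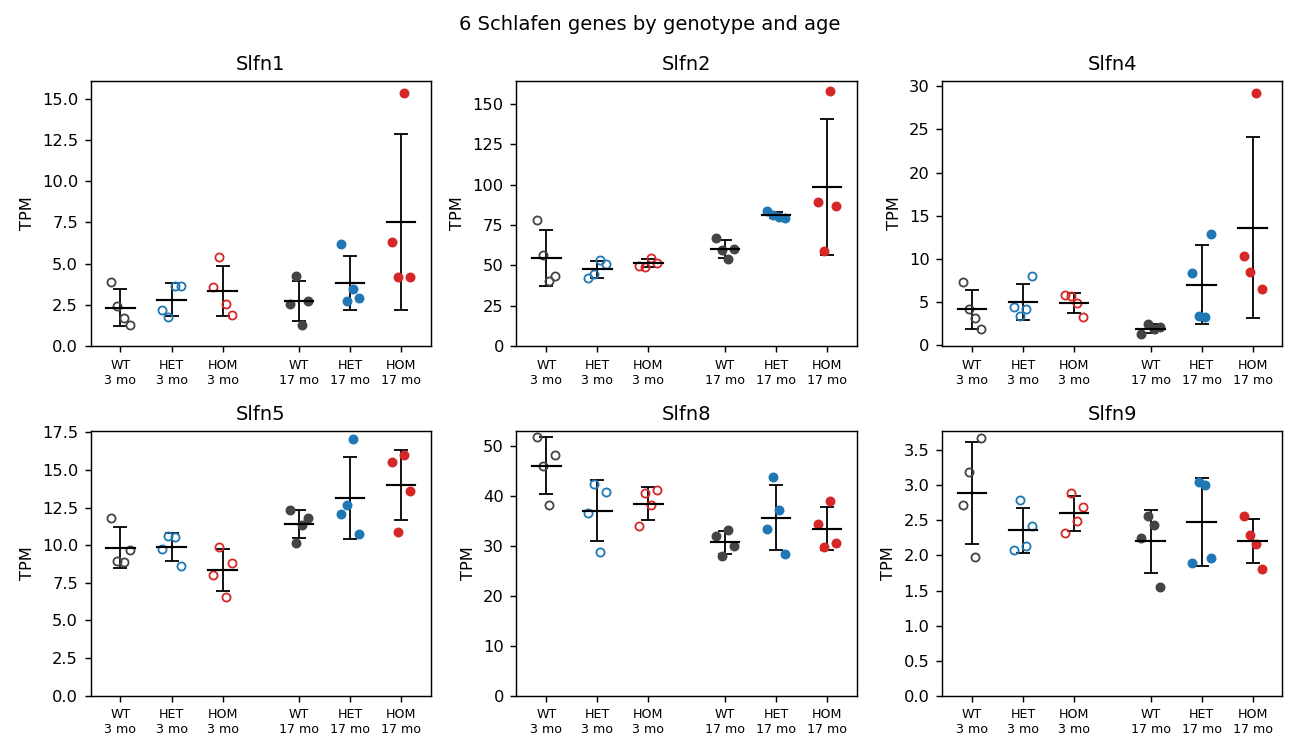
Level of each Schlafen gene in TPM (vertical axes start at 0) for 4 animals per genotype at 3 months (open circles) and 17 months (filled circles). Horizontal bars are means and error bars are SD. In homozygotes at 17 months, HOM-7899 is the highest animal for Slfn1, Slfn2 and Slfn4, at 15.4, 158 and 29.2 TPM.

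The level of Slfn4 was highest in old homozygotes and lowest in old wild types. At 17 months the WT animals had 1.28 (WT-7782), 2.42 (WT-7783), 1.82 (WT-7785) and 2.08 TPM (WT-7943). The HET animals had 8.41 (HET-7791), 3.41 (HET-7794), 3.25 (HET-7795) and 12.9 TPM (HET-7796), and the HOM animals 10.3 (HOM-7835), 8.43 (HOM-7893), 29.2 (HOM-7899) and 6.53 TPM (HOM-7901). All 4 homozygotes and all 4 heterozygotes lay above the highest wild type, while homozygotes and heterozygotes overlapped. The separation of homozygotes from wild types belongs to the comparison that chose the family. How many of all genes separated these 2 groups was not counted, so it cannot be weighed. Means were 1.90 ± 0.481, 6.996 ± 4.61 and 13.6 ± 10.5 TPM (SD, n = 4).

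The homozygous mean of Slfn4 was 7.172 times the wild-type mean, a difference of 2.12 in mean log2(TPM + 1), which placed it at position 8 of the 11792 genes kept. This comparison chose the family, so it carries no test. Of all genes tested there, 0.712% were called at an adjusted p under 0.05. Between homozygotes and heterozygotes the difference was 0.83 on the same scale, a ratio of means of 1.95, in a comparison in which 1.86% of genes were called. HOM-7899 weighed on both values. Without it the differences were 1.70 and 0.40. Among females alone, an analysis added after the data were seen with 3 WT and 1 HOM, the difference from wild type was 1.38. In RPKM (reads per kilobase and M alignments) the homozygous mean was 8.27 times the wild-type mean. The wild-type levels rest on few reads, with 9.14 to 40.6 alignments per kilobase of Slfn4, against 152 to 776 in homozygotes.

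**Figure D2:**
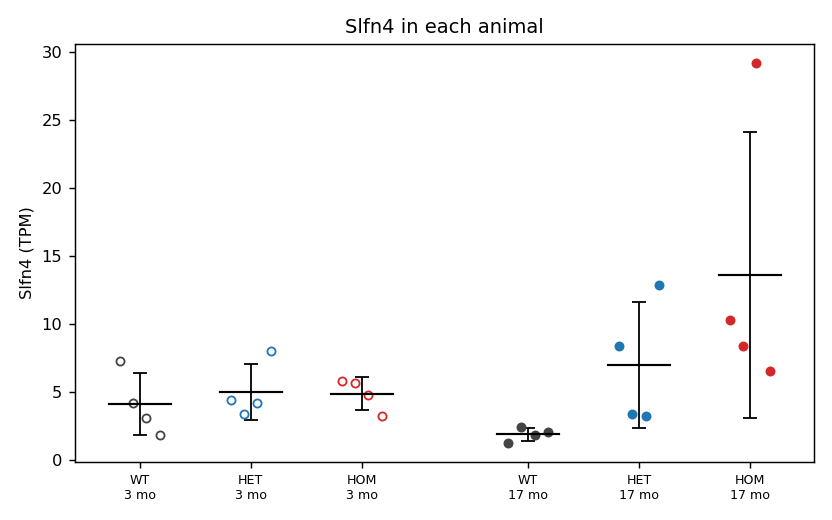
Slfn4 in TPM (vertical axis from 0) in each of 24 animals, by genotype and age. Bars are means and error bars SD of 4 animals. The 17-month wild types sit between 1.28 and 2.42 TPM, below all 8 heterozygotes and homozygotes of that age.

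The comparison of heterozygotes with wild types at 17 months uses the same 4 wild types, the group with the lowest Slfn4 mean, as the comparison that chose the family, so its test is not independent of that choice. Slfn4 was higher by 1.29 on the log2(TPM + 1) scale (SE 0.43, 95% interval 0.36 to 2.23) with no overlap between 4 HET and 4 WT animals, but was not called after adjustment over all genes (limma, adjusted p = 0.320). In the RPKM tables the difference was 1.19 (adjusted p = 0.313, limma). How many of all genes lacked overlap between 4 HET and 4 WT animals was not counted. The separation of Slfn4, and those of Slfn2 and the family sum given below, therefore cannot be weighed. In this comparison 0.237% of 11792 genes were called, all of them lower in heterozygotes, and 0 of the 6 Schlafen genes, with 1 of 6 (Slfn4) at an unadjusted p under 0.05 against 9.24% of all genes. Without HET-7791 and HET-7796, a fit added after the data were seen, the difference was 0.59 (SE 0.43, adjusted p = 0.515, limma). These were left out for their neutrophil marker sums, given further on, but they are also the heterozygotes with the most Slfn4, so leaving them out had to lower the value.

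Slfn4 did not follow genotype at 3 months. The WT animals had 7.27 (WT-8322), 4.22 (WT-8323), 3.12 (WT-8325) and 1.88 TPM (WT-8326). The HET animals had 4.39 (HET-8302), 3.398 (HET-8303), 4.22 (HET-8304) and 8.06 TPM (HET-8309), and the HOM animals 5.82 (HOM-8282), 5.70 (HOM-8285), 4.82 (HOM-8286) and 3.23 TPM (HOM-8287). The 3 groups overlapped throughout, with means of 4.12 ± 2.31, 5.02 ± 2.07 and 4.89 ± 1.198 TPM (SD, n = 4). The HOM against WT difference was 0.28 on the log2(TPM + 1) scale (95% interval -0.38 to 0.94, adjusted p = 0.631, limma), an interval that leaves room for a sizeable change in either direction. Heterozygotes differed from wild types by 0.28 as well (95% interval -0.38 to 0.94, adjusted p = 0.643), and homozygotes from heterozygotes by 0.00085 (95% interval -0.66 to 0.66).

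The ages stand in separately normalized tables, so levels were not tested between them. In wild types Slfn4 had 4.12 TPM at 3 months and 1.90 at 17 months, and in homozygotes 4.89 and 13.6 TPM. The order of the 6 group means ran from 17-month HOM through 17-month HET, 3-month HET, 3-month HOM and 3-month WT to 17-month WT, and each neighbouring pair differed by less than the larger of its SDs. Whether the heterozygous effect differed between ages was tested in one limma fit over 24 libraries, added after the data were seen. It rests at 17 months on the same wild types and so is not independent of the choice of the family either. For Slfn4 the effect at 17 months exceeded that at 3 months by 1.01 (SE 0.56, adjusted p = 0.414). In that test 0.691% of 11436 genes and 0 of the 6 Schlafen genes were called. At an unadjusted p under 0.05 stood 1 of the 6 (Slfn8), against 14.4% of all genes.

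Neutrophil and monocyte markers moved with Slfn4 in part of the animals. The summed level of 15 neutrophil markers at 17 months was 742 to 2861 TPM in WT, 2619 to 6493 TPM in HOM, and 909 (HET-7794), 1673 (HET-7795), 11486 (HET-7791) and 11746 TPM (HET-7796) in HET. The 2 heterozygotes with the highest neutrophil sums were those with the highest Slfn4. HET-7794 and HET-7795 had neutrophil sums within the wild-type range and Slfn4 at 3.41 and 3.25 TPM, above the highest wild type at 2.42 TPM. Their monocyte sums were 206 and 366 TPM, the latter above the wild-type range of 177 to 313 TPM. Of the neutrophil markers, 15 of 15 tested had positive differences between HOM and WT at 17 months (median 1.59), with 0 called by limma and 7 at an unadjusted p under 0.05, against 18.6% of all genes. The defining marker S100a8 averaged 484 TPM in WT, 2027 in HET and 1398 in HOM. Ly6g was not in the TPM tables. In RPKM it averaged 0.650, 5.04 and 3.41, with 0.0818 to 1.63 in WT and 2.13 to 4.52 in HOM. For S100a8 and S100a9, WT and HOM overlapped.

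Monocyte markers set the highest animal apart, and by their sum every 17-month homozygote lay above every wild type. The sum of 14 monocyte markers at 17 months was 177 to 313 TPM in WT and 206 to 529 TPM in HET, and 411 to 520 TPM in 3 of the homozygotes but 1519 TPM in HOM-7899, the animal with the most Slfn4. Of these markers 13 of 13 tested had positive HOM against WT differences (median 1.23, 0 called by limma, 9 at an unadjusted p under 0.05). Ccr2, which guides monocytes into tissue, averaged 9.14 TPM in WT, 11.9 in HET and 11.5 in HOM, and Plac8 averaged 40.2, 55.0 and 196 TPM with a highest value of 560 TPM. Ly6c2 averaged 17.8, 53.3 and 75.0 TPM, with 7.82 to 28.5 TPM in WT and 36.8 to 158 TPM in HOM. For Ccr2 and Plac8, WT and HOM overlapped. Markers of cells from outside the immune system differed between the 17-month groups as well. The sum of 8 oligodendrocyte markers was 2355 to 6586 TPM in WT, 419 to 1244 in HET and 804 to 2021 in HOM, so wild types lay above both mutant groups. The sum of 10 endothelial and mural cell markers was 247 to 323 TPM in WT, 153 to 232 in HET and 366 to 489 in HOM, with no overlap between any of the 3 groups. Of 9 tested, 2 (Pdgfrb and Vtn) were called higher in HOM than in WT and 8 higher in HOM than in HET (limma). Marker genes called are named here after their values were seen. Astrocyte markers summed to 196 to 415 TPM in WT, 123 to 162 in HET and 146 to 242 in HOM (8 genes), and neuron markers to 13.3 to 56.8, 10.1 to 23.7 and 11.3 to 27.7 TPM (8 genes). The part of any of these cells, microglia included, in the Slfn4 levels was not tested.

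The summed levels of the remaining immune lists overlapped between the 17-month groups. B cell markers summed to 27.7 to 38.8 TPM in 17-month WT, 33.1 to 48.2 in HET and 37.6 to 63.4 in HOM (5 genes). In mean log2(TPM + 1) over the same 5 genes, WT had 1.46 to 1.67, HET 1.39 to 2.50 and HOM 2.04 to 3.10. On that scale WT and HOM did not overlap. Of 4 tested, 4 had positive HOM against WT differences (median 1.17 against 0.054 over all genes). By limma 0 were called, with 3 at an unadjusted p under 0.05 against 18.6% of all genes. Cd79a had 0.798 to 1.76 TPM in WT and 3.22 to 16.7 TPM in HOM, while Ms4a1 overlapped. Their part in the Slfn4 levels was not tested. T and NK cell markers summed to 56.2 to 151, 69.4 to 113 and 89.4 to 176 TPM (14 genes), with Cd3e at or below 0.773 TPM in each 17-month animal. Markers of border-associated macrophages, the macrophages of the brain's linings and vessels, summed to 357 to 731, 450 to 1098 and 423 to 904 TPM (10 genes).

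At 3 months the same neutrophil sum was 1192 to 2870 TPM in WT, 1975 to 5484 TPM in HET and 2197 to 5138 TPM in HOM. Of 15 neutrophil markers 13 had positive HOM against WT differences, with a median of 1.21 (0 called by limma, 8 higher and 1 lower at an unadjusted p under 0.05), while Slfn4 differed by 0.28. Within that age the highest Slfn4 level, 8.06 TPM, was in HET-8309, which also had the highest neutrophil sum, 5484 TPM.

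**Figure D3:**
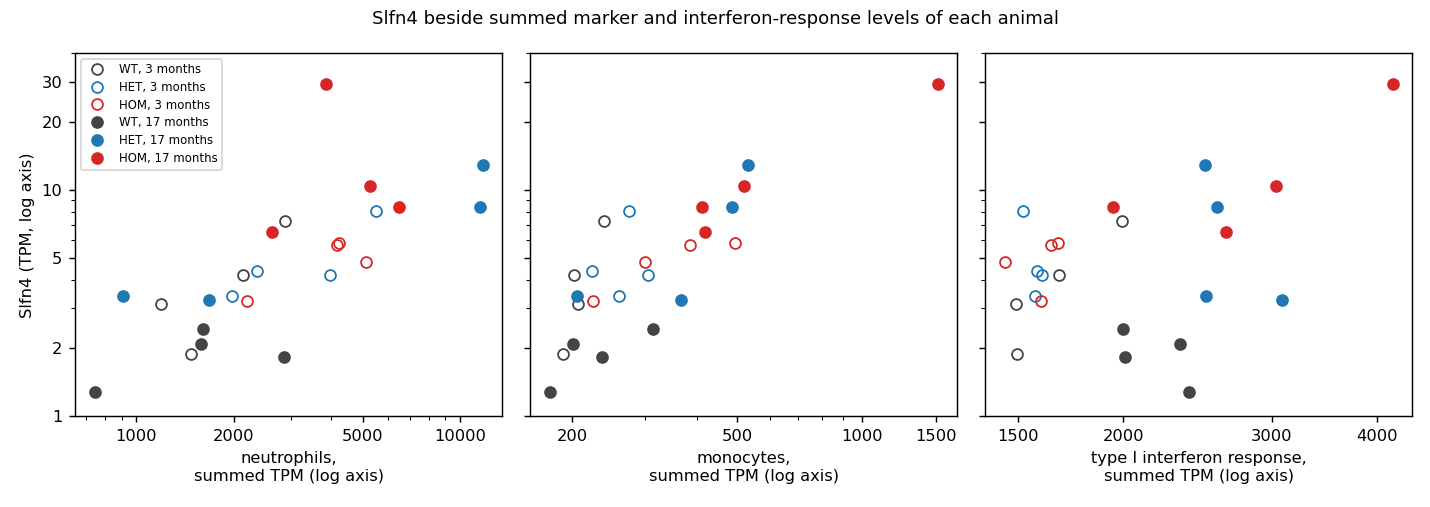
Slfn4 in TPM against the summed TPM of neutrophil markers (left), monocyte markers (middle) and type I interferon response genes (right) in each animal, on log axes, coloured by genotype and open at 3 months. HOM-7899 (29.2 TPM) has the highest monocyte sum, 1519 TPM, and the highest interferon response sum, 4177 TPM, but a neutrophil sum of 3852 TPM, below those of HET-7791 and HET-7796.

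Slfn2, the most abundant member by mean in each of the 6 groups, had higher means in both mutant groups than in wild types at 17 months. WT animals had 67.1, 59.7, 54.0 and 60.1 TPM and HET animals 83.9, 81.1, 79.9 and 79.5 TPM. HOM animals had 89.3 (HOM-7835), 59.2 (HOM-7893), 158 (HOM-7899) and 86.9 TPM (HOM-7901). The heterozygotes all lay above the wild types and close together (81.1 ± 1.97 against 60.2 ± 5.35 TPM, SD, n = 4), whereas HOM-7893 lay within the wild-type range. The HET against WT difference of 0.43 on the log2(TPM + 1) scale (SE 0.21, 95% interval -0.028 to 0.88) was not called (limma, adjusted p = 0.592). HOM against WT was 0.61 as a description, and 0.36 without HOM-7899. HOM against HET was 0.19, and -0.070 without that animal.

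At 3 months Slfn2 was at 54.7 ± 17.3 TPM in WT, 47.6 ± 5.16 in HET and 51.3 ± 2.52 in HOM (SD, n = 4). Wild types had the widest range, 40.05 to 78.3 TPM, and enclosed both mutant groups. The differences from wild type were -0.15 in HET (95% interval -0.51 to 0.20) and -0.042 in HOM (95% interval -0.40 to 0.32) on the log2(TPM + 1) scale, and neither was called. The HOM sign turned to 0.070 with median centring and to 0.14 without WT-8322. The heterozygous effect on Slfn2 was larger at 17 than at 3 months by 0.58 (SE 0.28, adjusted p = 0.350, limma).

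Slfn1, a short form that slows the growth of thymocytes when overexpressed, had low levels with a high homozygote. At 17 months WT animals had 2.55, 4.24, 1.29 and 2.73 TPM, HET animals 6.18, 2.70, 3.47 and 2.92 TPM, and HOM animals 6.32, 4.17, 15.4 (HOM-7899) and 4.18 TPM. All 3 groups overlapped. Means were 2.70 ± 1.21, 3.82 ± 1.61 and 7.51 ± 5.33 TPM (SD, n = 4). The HET against WT difference was 0.39 on the log2(TPM + 1) scale (95% interval -0.39 to 1.17, adjusted p = 0.896, limma), and HOM against WT, as a description, was 1.08, or 0.71 without HOM-7899. At 3 months the means were 2.32, 2.81 and 3.35 TPM, with a HOM against WT difference of 0.39 (95% interval -0.23 to 1.004, adjusted p = 0.468, limma).

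Slfn5, a long form that acts in the nucleus and is induced by type I interferon, had levels that overlapped between the genotypes at both ages. At 17 months it had 11.4 ± 0.916 TPM in WT, 13.2 ± 2.74 in HET and 14.0 ± 2.32 in HOM (SD, n = 4), with ranges of 10.2 to 12.3, 10.8 to 17.1 and 10.9 to 16.0 TPM that overlapped. HET against WT was 0.17 on the log2(TPM + 1) scale (95% interval -0.14 to 0.49, adjusted p = 0.875, limma), and HOM against WT, as a description, was 0.26. At 3 months it had 9.84 ± 1.36, 9.89 ± 0.927 and 8.33 ± 1.38 TPM. Homozygotes were lower than wild types by a difference of -0.22 (95% interval -0.49 to 0.047, adjusted p = 0.338, limma), which was not called. Against heterozygotes the difference was -0.23 (95% interval -0.50 to 0.037, adjusted p = 0.647, limma), also not called.

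Slfn8, a long form next to Slfn9, had lower means in both mutant groups at 3 months and higher means at 17 months. At 3 months WT animals had 51.9, 46.1, 38.3 and 48.2 TPM, HET animals 36.5, 42.4, 28.7 and 40.8 TPM, and HOM animals 34.1, 40.7, 38.1 and 41.2 TPM. The groups overlapped through WT-8325. The HET difference from wild type was -0.31 on the log2(TPM + 1) scale (SE 0.12, 95% interval -0.58 to -0.046, adjusted p = 0.175, limma), and the HOM difference was -0.25 (adjusted p = 0.285). The median difference over all 11587 genes was -0.089 in HET and -0.099 in HOM. At 17 months Slfn8 had 30.8 ± 2.33 TPM in WT, 35.7 ± 6.44 in HET and 33.5 ± 4.25 in HOM, with HET against WT at 0.19 (95% interval -0.085 to 0.47, adjusted p = 0.791). The HET effect of Slfn8 differed between the ages by 0.51 (SE 0.18, adjusted p = 0.195, limma), the smallest adjusted p of the 6 genes in that test.

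Slfn9 was the member whose mutant groups differed least from wild types at 17 months. It had 2.20 ± 0.448 TPM in WT, 2.48 ± 0.633 in HET and 2.21 ± 0.315 in HOM at that age (SD, n = 4), and 2.89 ± 0.722, 2.36 ± 0.327 and 2.60 ± 0.246 TPM at 3 months. All groups overlapped. Its tested differences lay between -0.20 (HET against WT at 3 months, 95% interval -0.51 to 0.11) and 0.11 (HET against WT at 17 months, 95% interval -0.24 to 0.46), and the HOM against WT difference at 17 months was 0.0088.

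At 3 months, then, 0 of 6 Schlafen genes were called in each comparison. The background was 0.0604% of 11587 genes for HOM against WT, 0.0432% for HET against WT and 0.0259% for HOM against HET, so few genes of any kind were called. At an unadjusted p under 0.05 stood 0, 1 (Slfn8) and 0 of the 6 genes, against 19.7%, 21.6% and 8.55% of all genes. At 17 months the means of all 6 genes were higher in HET than in WT, with a median difference of 0.29 against -0.012 over all genes. All 6 were also higher in HOM than in WT, with a median of 0.44 against 0.054. The HOM against WT comparison chose the family, so its values are a description. They ran from 0.0088 for Slfn9 to 2.12 for Slfn4. Slfn3, which is not a member, had differences from WT of -0.38 in HET and -0.098 in HOM. The share of all genes with positive differences was not counted. Both comparisons share the wild-type animals.

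**Figure D4:**
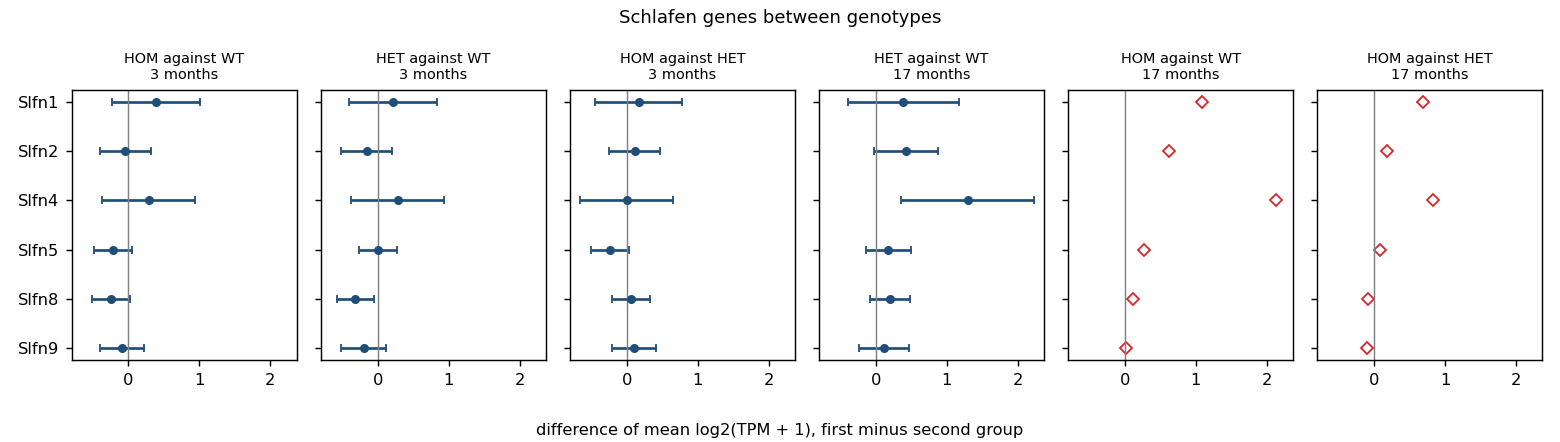
Difference of mean log2(TPM + 1) for each Schlafen gene in 6 comparisons. Circles with 95% intervals are tested comparisons, and open diamonds are the 17-month homozygous comparisons, which chose the family and carry no test. The Slfn4 difference between HET and WT at 17 months is 1.29 with an interval of 0.36 to 2.23, and that between HOM and WT is 2.12.

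The summed level of the 6 genes ran from 104 to 117 TPM in WT, 137 to 147 TPM in HET and 115 to 260 TPM in HOM at 17 months. Wild types and heterozygotes did not overlap, and homozygotes spanned the widest range. Slfn4 made up 1.76% ± 0.493 of that sum in WT, 4.95% ± 3.42 in HET and 7.41% ± 2.81 in HOM (SD, n = 4). At 3 months its share was 3.30% ± 1.201, 4.73% ± 1.64 and 4.498% ± 1.15. The ratio of Slfn2 to Slfn8 within a library was 1.97 ± 0.233 in WT, 2.32 ± 0.410 in HET and 2.87 ± 0.867 in HOM at 17 months, against 1.17 ± 0.261, 1.32 ± 0.360 and 1.34 ± 0.127 at 3 months.

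Across the 12 animals of 17 months, the 3 highest correlations between members were those among Slfn1, Slfn2 and Slfn4. Pearson's r of log2(TPM + 1) was 0.83 for Slfn1 and Slfn2, 0.80 for Slfn1 and Slfn4, and 0.78 for Slfn2 and Slfn4. At 3 months the same pairs had 0.51, 0.83 and 0.57. These 3 genes were grouped after the values were seen, and they share libraries, genotypes and the animal HOM-7899, so r is a description here. Slfn2 was also correlated with Slfn5 (0.69 at 17 months, 0.20 at 3 months) and Slfn8 (0.54 and 0.35), so the genes did not fall into separate sets. Slfn5 and Slfn8 had r of 0.65 at 17 months and 0.26 at 3 months, and the neighbours Slfn8 and Slfn9, which share sequence, had 0.57 and 0.72. Slfn4 and Slfn9 had -0.18 and -0.31.

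Among 11435 other genes kept at both ages, the 5 most like Slfn4 over the 17-month animals were Nfe2 (r 0.95), Stx11 (0.95), Bcl2 (0.95), Gda (0.94) and Mcemp1 (0.94), whose r at 3 months lay between 0.59 and 0.70. None of the 5 is on the list of 48 type I interferon response genes, the neutrophil list or the monocyte list. The last 2 lists hold only 15 and 14 genes of the tables. Absence from them therefore says little about the cells that express the 5 genes, which was not tested. Those most like Slfn2 were Oas3 (0.97), Cyp4f18 (0.94), Sp100 (0.94), Ifi27l2a (0.93) and Smpdl3a (0.93), of which 3 are on that list. At 3 months Sp100 and Ifi27l2a had r of 0.72 and 0.73 with Slfn2, and Smpdl3a had -0.037. Those most like Slfn5 were H2-K1 (0.93), H2-T22 (0.92), Usp18 (0.92), Ly6e (0.91) and Ifit1 (0.91), of which 2 are on the list. The 3-month r of Ifit1 with Slfn5 was 0.72 and that of H2-K1 was -0.14.

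The genes most like Slfn1 were Ccnd3 (0.93), Anxa2 (0.93), Sept9 (0.91), Dgat2 (0.91) and Fpr2 (0.90). Those most like Slfn8 were Cers5 (0.91), Adat1 (0.87), Nfkbie (0.87), Sp140 (0.86) and Pop4 (0.86), and those most like Slfn9 were Rfx7 (0.93), Snap29 (0.93), Socs6 (0.92), Mettl4 (0.89) and BC068281 (0.89). None of these 15 is on the interferon list.

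Since Schlafen genes are known interferon targets, a list of 48 other type I interferon response genes was set beside them. Of its 44 genes in the tables, 43 were tested at 17 months and 0 were called by limma in either direction between HOM and WT, with 7 higher and 1 lower at an unadjusted p under 0.05, a share near the 18.6% of all genes. Differences were positive in 34 of 43, with a median of 0.24 against 0.054 over all genes. Of the 4 genes with the largest test statistic, Stat2, which carries the type I signal to the nucleus, averaged 19.5 ± 3.04 TPM in WT and 28.6 ± 4.67 in HOM (SD, n = 4, adjusted p = 0.102). Oas2, a sensor of double-stranded RNA, averaged 5.92 ± 0.832 and 12.3 ± 5.57 TPM (adjusted p = 0.109). Sp100, a nuclear body protein, averaged 27.2 ± 1.54 and 40.2 ± 11.99 TPM (adjusted p = 0.128), and Ifitm3, which blocks viral entry, 253 ± 22.9 and 502 ± 289 TPM (adjusted p = 0.133).

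Among homozygotes this list had the same highest and lowest animal as Slfn2. Its summed level was highest in HOM-7899, 4177 TPM, and lowest of the homozygotes in HOM-7893, 1942 TPM, below all 4 wild types (1999 to 2390 TPM). Slfn4 in HOM-7893 was at 8.43 TPM. Heterozygotes had 2503 to 3085 TPM, above all wild types. In mean log2(TPM + 1) over the same 44 genes they overlapped, at 4.20 to 4.65 in HET and 4.13 to 4.40 in WT. Of 43 genes tested, 37 were positive for HET against WT (median 0.13 against -0.012 over all genes). By limma 0 were called, with 2 at an unadjusted p under 0.05 against 9.24% of all genes. At 3 months the list had 10 of 41 positive for HOM against WT, a median of -0.13 against -0.099 over all genes, and 0 called (5 at an unadjusted p under 0.05, each lower). Its 4 leading genes there were Ddx58, Ifi35, Parp9 and Irf9, each lower in HOM by -0.28 to -0.19 with adjusted p of 0.156 to 0.211 (limma).

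Of the 21 genes for interferon receptors and signalling, 0 were called in any of the 6 comparisons by limma. For HOM against WT, 4 were at an unadjusted p under 0.05 at 17 months, each higher, and 7 at 3 months, 1 higher and 6 lower, against 18.6% and 19.7% of all genes. At 17 months Socs3, a feedback inhibitor of Jak kinases, averaged 97.8 ± 20.8 TPM in WT, 147 ± 39.1 in HET and 148 ± 19.5 in HOM (SD, n = 4, HOM against WT adjusted p = 0.107). Irf5, a transcription factor downstream of Toll-like receptors, averaged 270 ± 29.9 and 320 ± 20.3 TPM in WT and HOM (adjusted p = 0.206), and Socs1 5.67 ± 1.10 and 7.76 ± 1.47 TPM (adjusted p = 0.259). At 3 months the leading genes were Mavs, the adaptor of RNA sensing, with 53.5 ± 1.51 and 45.7 ± 3.27 TPM (adjusted p = 0.111), and Irf3, Irf8 and Tmem173, each lower in HOM with adjusted p of 0.119 to 0.202.

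The interferon-gamma inducible GTPases, which attack the membranes around intracellular pathogens, gave 0 called of 16 tested in each of the 6 comparisons. Between HOM and WT at 17 months 12 of 16 were positive (median 0.23, 4 at an unadjusted p under 0.05 against 18.6% of all genes), led by Ifi47 (8.62 ± 1.37 and 12.2 ± 2.90 TPM), Tgtp1, Gbp4 and Gbp6, with adjusted p of 0.172 to 0.264. At 3 months 6 of 16 were positive (median -0.068, 3 at an unadjusted p under 0.05). The leading genes were Gbp5, Irgm2, Ifi47 and Irgm1, with adjusted p of 0.165 to 0.283, of which Ifi47 was higher and the others lower in HOM.

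Other symbols that start with Slfn were not members. Slfn3, the next gene after Slfn4 on the chromosome, had group means of 0.831 to 1.44 TPM. Its HET against WT difference at 17 months was -0.38 (95% interval -0.86 to 0.10, adjusted p = 0.712, limma), opposite in sign to Slfn4. Slfn14 and Slfnl1 stayed under 1 TPM in the mean of each age and were not tested. Slfn10-ps and Slfn5os stood in the RPKM tables only, under 1 RPKM.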

How the data were processed

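Microglial RNA from 24 mice was sequenced on stranded polyadenylated libraries, per the labels' protocols. The authors deposited TPM and RPKM tables per age, with alignments per library in the RPKM tables. The build mm10 and the tools Salmon 0.8.2, TopHat2 2.1.1, DESeq2 and Partek 7.17.0918 are listed in the submitters' processing notes; which of them made which table, the annotation and the use of strand in counting are not given in the sources used here. No table holds counts.

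Columns carry animal numbers, which the RPKM headers pair with genotypes; hemi in the 17-month headers was read as heterozygous. Tests used R 4.3.3 and limma 3.58.1 on log2(TPM + 1), which understates changes of low genes. A gene was tested at an age where its mean over all 12 animals reached 1 TPM, and a mean per genotype was fitted with a trend, two-sided, with Benjamini-Hochberg adjustment over all genes (call at adjusted p under 0.05). The scripts were tested on simulated data. Each group has 4 animals as replicates. Sex was read from 4 Y-linked genes (sum over 5 TPM).

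The members, the 13 gene lists and the tests were chosen with earlier results of these data known. Named genes are the members, the 5 genes most correlated with each, the 4 genes per pathway list with the largest test statistic between HOM and WT, the targeted gene and defining cell markers. Alternatives changed the pseudocount, low-value filter, table (RPKM), scaling, samples in the fit, a sex term, array weights and each animal left out.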

Additional observations from a re-analysis of the deposited data

Results flagged for a closer look

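In the 17-month homozygotes, Slfn4 in HOM-7899 (29.2 TPM) lay far from the other 3 animals (6.53 to 10.3 TPM). The gap to its nearest neighbour divided by the range of the group was 0.8323, just above Dixon's 95% limit for 4 samples. This ratio was taken in TPM and not on the log2(TPM + 1) scale of the tests, on which high values lie closer together. Of the 36 groups looked at (6 genes, 6 groups), only this one passed, and chance alone flags about 1 in 20. The same animal had the highest monocyte marker sum (1519 TPM) and type I interferon response sum (4177 TPM); their part in the value was not tested.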

How the results depend on the processing

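The count of Schlafen genes called in the 4 tested comparisons stayed at 0 in 87 of 89 alternatives, and at 0 without each animal in turn. With array weights it was 1 for HET against WT at 3 months (Slfn8, -0.29, adjusted p = 0.0227, limma) and 1 for HOM against HET at 3 months (Slfn5, -0.35, adjusted p = 0.0222), in fits that called 3507 and 3074 genes in all; the cause was not tested. The count over all genes was unsteady: it ran from 2 to 1836 for HOM against WT, 1 to 3507 for HET against WT and 1 to 3074 for HOM against HET at 3 months, and 0 to 659 for HET against WT at 17 months, each highest with array weights. Slfn4 in HOM minus WT at 17 months was 1.70 to 2.37 with 1 animal left out, 2.55 with a pseudocount of 0.1, 1.97 in RPKM and 1.38 among females; HOM minus HET was 0.40 to 1.16 with 1 animal left out. The HET against WT value at 17 months ran from 0.59 to 1.62 with adjusted p of 0.191 to 0.645. Signs of 3-month differences that were not called switched in 25 of the alternatives; the cause was not tested. For HOM against WT, Slfn2 was 0.012 in RPKM, 0.070 with median centring, 0.043 with quantile normalization, 0.010 with a sex term and -0.17 to 0.14 with 1 animal left out, and Slfn9 was 0.017 with median centring and 0.058 with quantile normalization. For HET against WT, a sex term gave 0.0046 for Slfn2 and -0.070 for Slfn5, array weights gave -0.032 for Slfn1, and leaving out 1 animal gave -0.28 to 0.033 for Slfn2 and -0.030 to 0.093 for Slfn5. For HOM against HET, Slfn4 was -0.030 in RPKM and -0.078 with a sex term, and with 1 animal left out Slfn4 was -0.13 to 0.22, Slfn8 -0.051 to 0.13 and Slfn1 -0.040 to 0.34. No paired analysis was possible because the columns carry animal numbers, which do not match the replicate numbers of the labels. The depth was lowest for Slfn4, Slfn1 and Slfn9, whose shallowest libraries held 9.14, 13.6 and 18.7 alignments per kilobase.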
